A study of Mus musculus with 12 samples.

Results

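The histone genes of the table comprised 77 of 21611 genes analysed, taken by symbol alone. The replicative genes were the 67 whose symbols start with Hist1h, Hist2h, Hist3h or Hist4h, and the variants were H1f0, H1fx, H2afx, H2afy, H2afy2, H2afz, H2afv, H2afj, H3f3a and H3f3b. The replicative genes encode 6 linker H1, 18 H2A, 18 H2B, 12 H3 and 13 H4 genes, of which 54 lie in the Hist1 clusters on chromosome 13. The study asked how gene expression in brain endothelial cells (ECs) differs between the time the blood-brain barrier forms and adulthood, and what Wnt3a or an inhibitor of class I histone deacetylases (HDACs) does to adult ECs. mRNA was sequenced from primary cortical ECs of wild-type C57BL/6J mice, used by the study's methods at the second passage on collagen, with a litter pooled into each replicate. The 12 libraries were 3 from untreated embryos at E13.5, 3 from adult controls, 2 from adult ECs given Wnt3a (200 nM in the labels) and 4 from adult ECs given MS-275 (10 uM), a class I HDAC inhibitor whose name the sample titles spell MS-257. The study's methods name 2 replicates for the MS-275 group, and which 2 of these 4 libraries they would be is not said. The adults were a few months old, the treatments lasted 2 days by the methods, and the sources used here do not say what vehicle the adult controls of these libraries received. Differences were tested with limma on the log2 of the normalized count plus 1, over the 15452 genes that reached 10 normalized counts in 2 or more libraries, with p-values adjusted by Benjamini-Hochberg and a threshold of 0.05. Of the histone genes, 40 replicative members and all 10 variants passed this filter. The other 27 replicative members reached at most 14.2 in any library.

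Histones package DNA into nucleosomes, which hold a pair of each of H2A, H2B, H3 and H4, while H1 binds the linker DNA between them. Replicative histone genes are clustered, have few or no introns and are transcribed mainly in S phase. Their mRNAs usually end just past a conserved stem-loop, without a poly(A) tail, and the stem-loop binding protein (Slbp) carries them through processing and translation. Variant genes stand alone, make polyadenylated mRNA throughout the cell cycle and supply histones that are placed outside replication. Some replicative genes can also make a longer, polyadenylated mRNA that runs past the stem-loop, as is known from differentiated cells. The libraries here were made with an mRNA kit, so a level below is that of the RNA which such a library holds and not of all histone RNA.

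The stem-loops of 7 members are shown because the annotated transcript ends of the abundant members differed in how far they run past them. They were read from the transcripts of GENCODE M21 on mm10, 5′ to 3′ on the strand of the gene, with the stems in capitals and the loop in lower case.
Hist1h1c, chr13:23739512-23739527, plus strand, 840 bases before the end of the model: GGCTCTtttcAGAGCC
Hist1h2be, chr13:23585531-23585546, minus strand, 1861 bases before the end of the model: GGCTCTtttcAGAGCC
Hist1h4i, chr13:22040966-22040981, minus strand, 330 bases before the end of the model: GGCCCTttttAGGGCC
Hist2h3c1, chr3:96247327-96247342, plus strand, 1167 bases before the end of the model: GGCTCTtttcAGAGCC
Hist1h2ao, chr13:21810898-21810913, plus strand, 31 bases before the end of the model: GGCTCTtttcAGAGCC
Hist1h2ap, chr13:21833029-21833044, minus strand, 3 bases before the end of the model: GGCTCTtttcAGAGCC
H2afx, chr9:44335240-44335255, plus strand, 822 bases before the end of the model: GGCCCTtttaAGGGCC
A stem-loop was found in 46 of the 67 replicative members, and the form shown for Hist1h1c was that of 26 histone genes. Among the 10 variants, it was found in H2afx alone. The models of 23 replicative members ran more than 100 bases past the stem-loop and those of 23 others ended within 100 bases. No stem-loop was found in 6 members whose model runs on past the stop codon, Hist1h2bc and Hist2h2be among them, nor in 15 whose model ends with the coding sequence. The limit of 100 bases was chosen after the models were seen.

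Each library had between 20804279 and 33149580 reads that fell on genes, and 1 read was worth 0.795 to 1.39 normalized counts. The label of the E13.5 libraries was at odds with their markers. The 10 EC markers, which include Pecam1, Cdh5 and Cldn5, summed to 883 to 1391 normalized counts there against 239300 to 321600 in the adult controls, and all 10 passed the test as higher in the controls. The 7 markers tested of pericytes and smooth muscle were all lower in the controls (summed level 87.6 to 102, against 30190 to 49840 at E13.5), and so were all 8 of neurons (12.2 to 14.8, against 8327 to 11500) and 9 of 10 of neural progenitors (110800 to 152900, against 181300 to 188800). The progenitor sums understate this difference. In the controls only 2 of these 10 markers had a mean over 100 and 6 had no read, and the median of their means was 0.0, against 11750 at E13.5. With MS-275, all 10 EC markers fell, to summed levels of 18570 to 33600, while 4 of 7 mural markers tested rose and 0 fell (summed level 554 to 813, against 87.6 to 102 in the controls), as did 4 of 8 neuronal markers (664 to 740, against 12.2 to 14.8). How far these cells differ in type from the adult controls was not tested for its part in any result below, and stage and cell type cannot be told apart in the E13.5 comparison. The libraries also fell into sets that no label gives, by the sign of the first principal component of their deviations from the group means over all genes (45.9% of that deviation). The first set held adult control 3, Wnt3a 2, MS-275 2 and 4 and E13.5 2 and 3, and the second held the rest. The E13.5 libraries had small values on this component (-0.038, 0.019 and 0.019). Adult libraries had larger ones, such as -0.21 in adult control 1 and 0.45 in adult control 3. Only the sign thus placed the E13.5 libraries, and their sets need not match those of the adult libraries. Replicates within a set and group were far closer (chi-square per gene of 5.07 to 29.3) than those across sets (83.6 to 278.5), so that if they are not separate cultures the p-values here are too small. MS-275 replicates 1 and 3 were 1 such pair (29.3) and replicates 2 and 4 another (6.97). A further fit, added after the data were seen, averaged the libraries of a group within each set and counted them as 1 replicate, and its calls are given below as those with close libraries averaged. Within 36-base windows, 37 of the 67 replicative members, 21 of the 40 tested among them, shared over 50% of their sequence with other genes, and the sources used here do not say how reads from such windows were assigned.

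Replicative histone mRNA as a whole was low in the adult controls and higher after MS-275. Its summed level was 1722, 1513 and 1293 normalized counts in adult controls 1 to 3, and 3534, 4414, 3659 and 3327 in MS-275 replicates 1 to 4. At E13.5 it was 4761, 2957 and 2643, and with Wnt3a it was 3702 and 1602. Every MS-275 and E13.5 library thus lay above every control, while the Wnt3a replicates lay far apart. In the adult controls, the replicative members made up 0.0049% to 0.0063% of the reads on genes, and the 10 variants 0.137% to 0.147%.

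The classes of replicative genes moved unequally. With MS-275, the H1 genes summed to 711 to 1340 normalized counts against 84.8 to 203 in the controls, the H2B genes to 1094 to 1607 against 222 to 251, the H3 genes to 136 to 302 against 52.3 to 94.5, and the H4 genes to 261 to 340 against 29.6 to 63.3. None of these ranges overlapped. The H2A sum went the other way in 3 of 4 libraries, at 555 to 955 against 904 to 1182, and these ranges overlapped. That sum holds the near-identical pair Hist1h2ao and Hist1h2ap, the only 2 of 10 H2A genes tested that were called lower. The pair went from 223 and 226 in adult control 3 to means of 25.99 and 26.45 in the MS-275 libraries of the first set. In the second set, its means went from 188 and 197 to 36.7 and 40.4. The H2A sum without this pair was not taken, so a fall of the other H2A genes is not shown. These sums were not tested.

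**Figure D1:**
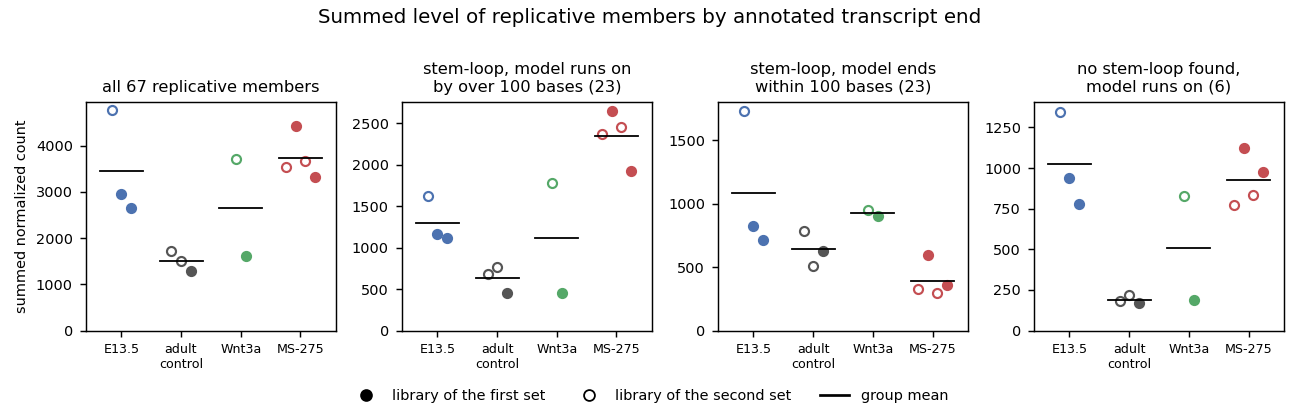
Summed normalized count of the replicative members in each library, in all (67 members) and by the end of the annotated transcript (23, 23 and 6 members). Each point is a library, filled for the first set and open for the second, and lines are group means. Members whose model runs on past the stem-loop summed to 1922 to 2642 with MS-275 against 457 to 763 in the controls, while those whose model ends close to it summed to 294 to 594 against 507 to 789. The latter sum holds the near-identical pair Hist1h2ao and Hist1h2ap, the only short models called lower with the normalization as deposited. Its fall is not shown for the other short models.

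The replicative members were also grouped by annotated transcript end. Members whose model runs more than 100 bases past the stem-loop summed to 684, 763 and 457 normalized counts in the controls and to 2371, 2642, 2452 and 1922 with MS-275. Those whose model ends within 100 bases summed to 789, 507 and 628 in the controls and to 324, 594, 294 and 361 with MS-275. The 6 without a stem-loop whose model runs on summed to 184, 219 and 169 in the controls and to 772, 1125, 833 and 976 with MS-275. Thus both kinds of running model had every MS-275 library above every control, and the short models had 3 of 4 MS-275 libraries below every control. The short-model sum holds the near-identical pair Hist1h2ao and Hist1h2ap, the only short models called lower with the normalization as deposited. In adult control 3 they were at 223 and 226, against means of 25.99 and 26.45 in the MS-275 libraries of the first set. In the second set, their means went from 188 and 197 to 36.7 and 40.4. The short-model sum without this pair was not taken, so its fall is not shown for the other short models. Of all genes tested, 30.3% rose and 22.7% fell with MS-275, and 26.0% and 24.3% under quantile normalization. Among members tested, 12 of 17 with a model that runs on past the stem-loop rose with MS-275 and 0 fell (median log2 fold change 2.56), and under quantile normalization 8 rose and 0 fell. Of the 12 with a short model, 2 rose and 2 fell (median 0.15), and under quantile normalization 0 rose and 4 fell. Of the 6 with no stem-loop and a running model, 5 rose (median 1.67; 2 rose and 1 fell under quantile normalization), and of the 5 tested whose model ends at the coding sequence, 2 rose (median 1.76; 0 rose and 2 fell under quantile normalization). A difference between these groups of members was not tested. Of all reads on replicative members, 49.5% fell on the 23 that run on past the stem-loop, 23.9% on the 6 that run on without one and 24.6% on the 23 that end close to it.

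Across the 40 replicative members tested, 21 rose and 2 fell with MS-275, against a background of 30.3% of all genes tested that rose and 22.7% that fell, while under quantile normalization of the same values 10 rose and 7 fell (26.0% and 24.3% of all genes). With close libraries averaged, 5 rose and 2 fell (14.1% and 11.2% of all genes). Of the abundant members named below, Hist1h2be, Hist1h4i, Hist1h2ao and Hist1h2ap were still called (adjusted p = 0.020, 0.0499, 0.025 and 0.024), and Hist1h1c, Hist1h2bc, Hist1h2bg, Hist2h2be and Hist2h3c1 were not (adjusted p = 0.066, 0.053, 0.13, 0.25 and 0.15). The median log2 fold change of the 40 was 1.62, beside 0.19 over all genes tested. Under quantile normalization it was 0.347, beside 0.0098 over all genes tested. In 20 of the 40, every MS-275 library lay above every control, which held for 29.8% of all genes tested, and in 2 every MS-275 library lay below, which held for 23.4%. By class, all 4 H1 genes tested rose, as did 10 of 13 H2B, 4 of 9 H4, 2 of 4 H3 and 1 of 10 H2A genes, while under quantile normalization 3 H1, 4 H2B, 1 H4, 1 H3 and 1 H2A genes rose and 6 H2A and 1 H3 genes fell. Of the 21 that rose, 14 had a mean under 100 in every group, and their log2 fold changes ran from 1.65 to 4.82. Of the 4 H1 genes, Hist1h1a reached the filter of 10 normalized counts only in MS-275 libraries, so it could be called only as higher. How many other risen members passed the filter only through MS-275 was not counted. Taken alone against the controls, MS-275 replicates 1 and 3 gave 15 higher members (24.8% of all genes tested) and replicates 2 and 4 also 15 (28.7%), of which 10 were shared. These pairs were chosen after the data were seen and were compared with the same controls, so the shared calls are not independent. The share of all genes called with both pairs was not counted. On chromosome 13, 12 of 16 tested in the Hist1 subcluster at chr13:23531050-23934851 rose and 0 fell, and 7 of 14 in that at chr13:21715763-22043676 rose and 2 fell, which were Hist1h2ao and Hist1h2ap.

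Among the H1 genes, Hist1h1c, a replicative linker histone and the most abundant replicative member on average, was at 147, 179 and 61.1 normalized counts in the controls and at 1149, 796, 1214 and 513 with MS-275. The lowest MS-275 library held more than the highest control. The fold change was 7.34 (log2 2.88 ± 0.67, SE, n = 4 and 3, limma adjusted p = 0.0039). The gene (chr13:23738808-23740367, plus strand) shares 10.5% of its windows with other genes. Hist1h1a was listed at 0 in all 3 controls, and at 3.41, 80.9, 12.97 and 7.58 with MS-275. It passed the filter only through MS-275 replicates 2 and 3. Its MS-275 mean was at least 9.13-fold the floor of 3 reads per library, with replicate 2 far above the others.

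Most H2B genes tested rose. Hist1h2bc was at 81.5, 97.6 and 52.3 in the controls and at 548, 719, 604 and 701 with MS-275, an 8.46-fold difference (log2 3.08 ± 0.61, limma adjusted p = 0.0015). Hist1h2be was at 12.1, 14.2 and 24.6 in the controls and at 121, 302, 146 and 289 with MS-275, an 11.5-fold difference (log2 3.53 ± 0.50, limma adjusted p = 0.00016). In both genes the 4 treated libraries were several times above the controls and close to each other on the log scale, and Hist1h2be was higher in the first set than in the second. Its model overlaps that of the H1 gene Hist1h1e on the same strand, and reads from their common part cannot be told apart here. Hist1h2bg was at 8.68, 10.2 and 10.8 in the controls and at 64.0, 92.9, 81.1 and 97.2 with MS-275 (7.71-fold, log2 2.95 ± 0.77, limma adjusted p = 0.0078). Hist1h2bg shares 53.3% of its windows with other genes. Hist2h2be, on chromosome 3, was at 55.5, 72.2 and 88.7 in the controls and at 117, 201, 90.8 and 160 with MS-275. The groups just failed to overlap, and the 1.91-fold difference (log2 0.93 ± 0.33, limma adjusted p = 0.034) was not called without adult control 1 or 2 or MS-275 replicate 2 or 4 (adjusted p = 0.077 to 0.13), nor under quantile normalization (0.12), in a fit of only the 2 groups (0.053) or with the replicate number as a block (0.076).

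Of the H4 and H3 genes, Hist1h4i was at 42.5, 18.3 and 16.8 in the controls and at 223, 254, 269 and 201 with MS-275, 9.59-fold higher (log2 3.26 ± 0.67, limma adjusted p = 0.0018). The treated libraries were within a narrow range that lay wholly above the controls. Hist2h3c1 was at 26.0, 48.8 and 25.6 in the controls and at 109, 166, 97.3 and 53.0 with MS-275, 3.02-fold higher (log2 1.59 ± 0.54, limma adjusted p = 0.028). Its call was lost without any of adult control 1 or 3 or MS-275 replicate 1, 2 or 3 (adjusted p = 0.051 to 0.090) and under quantile normalization (adjusted p = 0.11), and all of its windows lie in a read-through transcript model, Gm20634, as well.

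The H2A genes held the only replicative members that fell. Hist1h2ao was at 260, 116 and 223 in the controls and at 41.8, 39.3, 31.6 and 12.6 with MS-275, 6.41-fold lower (log2 -2.68 ± 0.55, limma adjusted p = 0.0018). Hist1h2ap was at 271, 124 and 226 in the controls and at 45.2, 41.5, 35.7 and 11.4 with MS-275 (log2 -2.68 ± 0.56, limma adjusted p = 0.0022). Both fell below every control in all 4 treated libraries. They are near-identical copies, with 93.7% of the windows of Hist1h2ao in Hist1h2ap and a ratio of 0.886 to 1.11 between them in each library, and may be the same reads split between 2 genes. The other abundant H2A genes did not pass the test. Hist3h2a was at 369, 418 and 264 in the controls and at 411, 362, 305 and 326 with MS-275 (log2 0.02 ± 0.26, limma adjusted p = 0.97). Hist2h2aa1 was at 103, 112 and 76.9 in the controls and at 71.6, 210, 58.4 and 122 with MS-275, and Hist2h2aa2, which is the same in sequence over all of its windows, stayed within a ratio of 0.911 to 1.03 of it. In this pair the MS-275 libraries of the first set were above every control and those of the second set below.

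**Figure D2:**
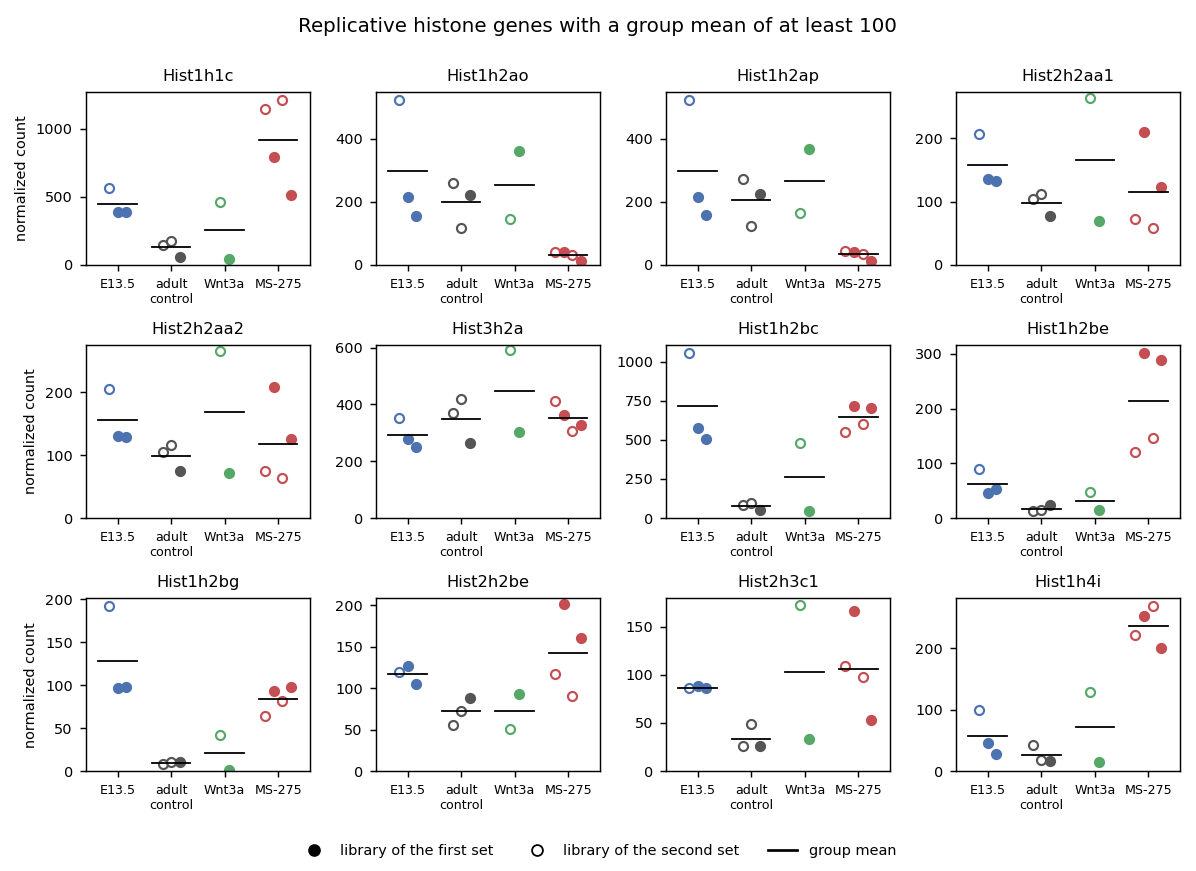
Normalized count of the 12 replicative members with a mean of at least 100 in at least 1 group, in each of the 12 libraries. Each point is a library, filled for the first set and open for the second, and lines are group means. With MS-275, Hist1h1c, Hist1h2bc, Hist1h2be, Hist1h2bg, Hist1h4i, Hist2h2be and Hist2h3c1 rose and Hist1h2ao and Hist1h2ap fell, of which Hist2h2be and Hist2h3c1 did not pass under quantile normalization.

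The promoters of 4 members are shown because these genes moved in different ways, H3f3b and Hist1h1c upward and Hist1h2ao downward with MS-275, and H1f0 in opposite ways in the 2 library sets. They are the 250 bases before the start of the gene from RefSeq on GRCm38.p6, 5′ to 3′ on the strand of the gene. Capitals mark the CCAAT box (letters CCAAT), the TATA box (letters TATAAA) and the GC box (letters GGGCGG), each on either strand.
H1f0: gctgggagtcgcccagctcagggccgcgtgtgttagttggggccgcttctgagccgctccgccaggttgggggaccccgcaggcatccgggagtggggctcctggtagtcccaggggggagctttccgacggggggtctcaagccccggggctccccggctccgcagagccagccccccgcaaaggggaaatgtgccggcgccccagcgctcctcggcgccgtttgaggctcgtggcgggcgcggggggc
H3f3b: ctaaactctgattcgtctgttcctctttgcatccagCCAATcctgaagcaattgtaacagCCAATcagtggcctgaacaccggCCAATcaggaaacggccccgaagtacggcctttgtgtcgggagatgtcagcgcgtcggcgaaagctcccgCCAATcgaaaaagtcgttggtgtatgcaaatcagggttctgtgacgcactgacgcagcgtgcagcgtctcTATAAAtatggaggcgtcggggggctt
Hist1h1c: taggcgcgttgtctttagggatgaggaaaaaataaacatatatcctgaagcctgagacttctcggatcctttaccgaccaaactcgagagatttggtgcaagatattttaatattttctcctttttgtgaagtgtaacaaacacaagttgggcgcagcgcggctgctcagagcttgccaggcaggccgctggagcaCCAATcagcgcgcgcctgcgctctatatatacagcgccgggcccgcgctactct
Hist1h2ao: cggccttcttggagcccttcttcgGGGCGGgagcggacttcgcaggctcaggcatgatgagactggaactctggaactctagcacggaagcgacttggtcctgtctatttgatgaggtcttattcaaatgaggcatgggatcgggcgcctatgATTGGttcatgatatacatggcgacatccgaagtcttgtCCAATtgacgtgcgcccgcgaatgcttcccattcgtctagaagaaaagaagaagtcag
The H1f0 stretch lies at chr15:79027962-79028211, plus strand, that of H3f3b at chr11:116024505-116024754, minus strand, that of Hist1h1c at chr13:23738557-23738806, plus strand and that of Hist1h2ao at chr13:21810117-21810366, plus strand. RefSeq promoters of 300 bases, with 50 after the start, were matched for 61 replicative and 9 variant members. CCAAT on either strand was in 52 of 61 replicative promoters (85.2%) against 37.4% of all 32851 promoters, TATAAA in 35 (57.4%) against 13.6%, and GGGCGG in 24 (39.3%) against 35.7%. Of the 9 variant promoters, 6 held CCAAT, 1 held TATAAA and 7 held GGGCGG. These matches describe the letters only.

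Of the 10 variant genes, 3 rose and 2 fell with MS-275, which is near the shares of all genes tested (30.3% and 22.7%). With close libraries averaged, H2afv still rose (adjusted p = 0.023) and H2afx still fell (adjusted p = 0.045), while H3f3b, H2afj and H2afy2 were not called (adjusted p = 0.087, 0.14 and 0.17). Per kilobase of annotated exon, H1f0 (mean 4039 normalized counts per kilobase), H3f3a (3272), H2afz (3172) and H3f3b (2394) were the most abundant histone mRNAs of the controls, and the highest replicative member, Hist1h2ap, was at 429. These levels are descriptions, since exon models differ in how well they match the mRNA present.

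H1f0, the linker histone known to accumulate in cells that have left the cell cycle, split the MS-275 libraries. It was at 9422, 9362 and 6119 in the controls and at 16251, 2273, 16825 and 2048 with MS-275. Replicates 1 and 3 were above every control and replicates 2 and 4 below every control. The fit over all 4 gave a log2 fold change of -0.45 ± 0.70 (limma adjusted p = 0.61). Within the first set the difference on the log2 scale was -1.50, and within the second it was 0.82, with no test since the sets come from the data. H2afz, which encodes the promoter-associated variant H2A.Z, divided the same way with a smaller span, at 6738, 5843 and 4319 in the controls and at 7587, 3632, 9769 and 3361 with MS-275 (log2 -0.01 ± 0.36, limma adjusted p = 0.99).

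H2afv, the other gene for H2A.Z, rose in all 4 libraries. It was at 427, 375 and 391 in the controls and at 1037, 1509, 1288 and 1593 with MS-275, 3.37-fold higher (log2 1.75 ± 0.27, limma adjusted p = 0.00033). H3f3b, which encodes histone H3.3, was at 6858, 5735 and 8785 in the controls and at 17464, 11652, 16280 and 9842 with MS-275, 1.92-fold higher (log2 0.94 ± 0.22, limma adjusted p = 0.0044). The treated libraries were all above the controls, by 0.29 on the log2 scale within the first set and by 1.43 within the second. H3f3a, whose protein is the same as that of H3f3b, did not pass the test, at 10676, 10874 and 12848 against 7097, 11045, 7714 and 11057 (log2 -0.34 ± 0.25, limma adjusted p = 0.29). H2afj, a variant known from senescent cells, was at 1648, 1746 and 726 in the controls and at 2358, 1915, 2744 and 2101 with MS-275 (log2 0.82 ± 0.31, limma adjusted p = 0.043). That call was lost without adult control 3 or any 1 of the MS-275 libraries (adjusted p = 0.050 to 0.16), with TMM scaling (0.058), in edgeR (0.087), in a fit of only the 2 groups (0.066) and with the replicate number as a block (0.057).

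H2afx and H2afy2 fell. H2afx, whose product is phosphorylated at DNA breaks and which carries the stem-loop shown above, was at 1304, 1236 and 1019 in the controls and at 525, 341, 580 and 240 with MS-275, 2.97-fold lower (log2 -1.57 ± 0.33, limma adjusted p = 0.0022). Every treated library was below every control, as in Hist1h2ao and Hist1h2ap. H2afy2, a macroH2A gene linked to silent chromatin, was at 310, 250 and 91.7 in the controls and at 66.5, 75.4, 51.1 and 74.5 with MS-275 (log2 -1.53 ± 0.40, limma adjusted p = 0.0082). The difference on the log2 scale was -2.24 within the second set and -0.29 within the first, where adult control 3 was the only control. H2afy, the other macroH2A gene, was at 3053, 3111 and 2080 against 2145, 1932, 2285 and 1960 (log2 -0.38 ± 0.16, limma adjusted p = 0.069), and passed as lower without adult control 3 (adjusted p = 0.0046), with TMM scaling (0.040), in edgeR (0.034) and in DESeq2 (0.040). H1fx, a linker histone variant, was at or near 0 in all adult libraries.

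**Figure D3:**
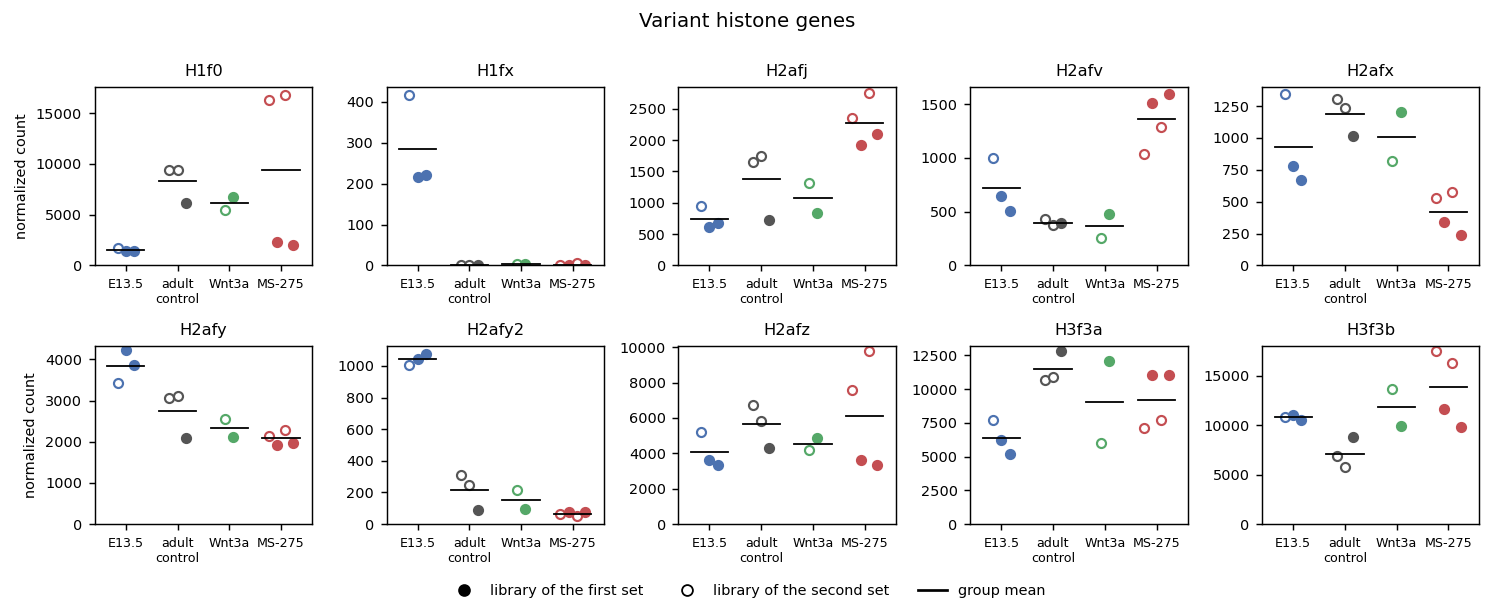
Normalized count of the 10 variant histone genes in each of the 12 libraries. Each point is a library, filled for the first set and open for the second, and lines are group means. H1f0 lies at 16251 and 16825 in the MS-275 libraries of the second set and at 2273 and 2048 in those of the first, and H1fx is listed at 0 in all 3 adult controls.

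With the normalization as deposited, the adult controls held less replicative histone mRNA than the E13.5 libraries. Of the 40 replicative members tested, 17 were lower and 1 was higher in the controls, against 32.8% of all genes tested that were lower and 19.5% that were higher, but under quantile normalization 13 were higher and 2 lower (31.1% and 24.7% of all genes). Under scaling of all libraries to 1 common total, 1 was higher and 18 lower, with TMM scaling 1 and 17, and with close libraries averaged 1 and 7 (9.68% and 22.1% of all genes). Quantile normalization moved the median of all genes from -0.20 to 0.13 on the log2 scale and turned the split of calls from 3008 higher and 5066 lower to 4800 and 3810. The median log2 fold change of the 40 was -1.33, but 0.805 under quantile normalization, where the median of every class was above that of no change. In 23 of them every control lay below every E13.5 library (38.0% of all genes tested) and in 1 every control lay above (23.9%). By class, 8 of 13 H2B, 4 of 9 H4, 2 of 4 H1, 2 of 10 H2A and 1 of 4 H3 genes were lower with the normalization as deposited, against 1 H2B and 1 H2A gene under quantile normalization. The gene that was higher, the H2A gene Hist1h2ai, was at 2.38, 0 and 0 normalized counts at E13.5 and at 14.7, 4.07 and 10.8 in the controls (log2 2.71 ± 0.68, limma adjusted p = 0.0058), and shares 90.5% of its windows with other genes.

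Hist1h2bc was at 1055, 578 and 507 normalized counts at E13.5 and at 81.5, 97.6 and 52.3 in the adult controls, 8.95-fold lower (log2 -3.16 ± 0.65, limma adjusted p = 0.0018). It was lower under quantile normalization too (log2 -2.57, adjusted p = 0.0031). Hist1h2bg was at 192, 96.2 and 97.3 at E13.5 and at 8.68, 10.2 and 10.8 in the controls, 11.3-fold lower (log2 -3.50 ± 0.83, limma adjusted p = 0.0041), but it did not pass under quantile normalization (adjusted p = 0.19) or with close libraries averaged (0.069). Both H2B genes were thus far below the E13.5 libraries in all 3 controls. Hist1h1c was at 563, 387 and 389 at E13.5 against 147, 179 and 61.1 (log2 -1.89 ± 0.71, limma adjusted p = 0.044). That call was lost without any 1 of the E13.5 libraries or without adult control 1 or 3 (adjusted p = 0.067 to 0.14), under quantile normalization (0.097), in edgeR (0.060) and with close libraries averaged (0.15). Hist1h2be was at 89.0, 45.1 and 52.5 against 12.1, 14.2 and 24.6 (log2 -1.81 ± 0.53, limma adjusted p = 0.014), was not called without E13.5 replicate 1 or adult control 1 (adjusted p = 0.056 and 0.054) or with close libraries averaged (0.12), and turned to log2 0.76 (adjusted p = 0.23) under quantile normalization.

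The abundant H2A genes of E13.5 did not pass. Hist1h2ao was at 522, 215 and 155 at E13.5 (log2 -0.45 ± 0.59 for the controls against E13.5, limma adjusted p = 0.55), and Hist3h2a at 352, 279 and 249 (log2 0.24 ± 0.28, limma adjusted p = 0.49). Both overlapped the controls, and Hist3h2a passed as higher in the controls under quantile normalization (log2 0.77, adjusted p = 0.036). The remaining named members, Hist1h4i, Hist2h2be, Hist2h3c1, Hist1h2ap, Hist2h2aa1 and Hist2h2aa2, had adjusted p-values of 0.060 to 0.60. Hist2h3c1, at 0.060, passed as lower under scaling to a common total (0.037), in a fit of only the 2 groups (0.013), with the library set as a block (0.028) and in DESeq2 (0.043), while its log2 fold change was 0.80 (adjusted p = 0.22) under quantile normalization. Hist2h2be was at 119, 127 and 105 and Hist2h3c1 at 85.8, 88.4 and 85.9 at E13.5, above every control in each case, but under quantile normalization the log2 fold change of Hist2h2be turned to 1.04 (adjusted p = 0.029).

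Among the 10 variants, 2 were higher and 5 lower in the adult controls, beside 19.5% and 32.8% of all genes tested. H1f0 was at 1715, 1448 and 1449 at E13.5 and at 9422, 9362 and 6119 in the controls, 5.31-fold higher (log2 2.41 ± 0.74, limma adjusted p = 0.018). All 3 controls were several times above the E13.5 libraries, and the adjusted p was 0.051 to 0.053 without E13.5 replicate 2 or 3 or adult control 1 or 2, and 0.079 with close libraries averaged. H1fx was at 416, 217 and 222 at E13.5 and listed at 0 in all 3 controls, at least 99.4-fold lower against the floor of 3 reads per library (limma adjusted p = 1.3e-06). H2afy2 was at 1004, 1041 and 1077 at E13.5 and at 310, 250 and 91.7 in the controls, 5.39-fold lower (log2 -2.43 ± 0.43, limma adjusted p = 0.00064). These 3 genes kept their direction and call under quantile normalization. The other variant calls were small. H3f3a was 1.81-fold higher in the controls (7731, 6244 and 5226 at E13.5, limma adjusted p = 0.021), and H3f3b was 1.54-fold lower (10835, 11029 and 10493 at E13.5, limma adjusted p = 0.046). The genes for one and the same H3.3 protein thus lay on opposite sides of the E13.5 libraries, but H3f3a was not called without E13.5 replicate 2 or 3 or adult control 3 (adjusted p = 0.054 to 0.084) or under quantile normalization (0.090) or scaling to a common total (0.059), nor H3f3b without any 1 of the E13.5 libraries or adult control 1 or 2 (adjusted p = 0.091 to 0.16), with TMM scaling (0.074), without the filter (0.052) or in edgeR (0.14). H2afv was 1.73-fold lower (998, 646 and 502 at E13.5, limma adjusted p = 0.042) and was not called without E13.5 replicate 1 or 2 or any 1 of the controls (adjusted p = 0.071 to 0.16), nor under quantile normalization (0.098), TMM scaling (0.057), a block for library set (0.052) or replicate number (0.066), or in edgeR (0.064). H2afy was 1.41-fold lower (3434, 4222 and 3856 at E13.5, limma adjusted p = 0.032) and was not called without E13.5 replicate 2 or 3 or adult control 3 (adjusted p = 0.079 to 0.11), with TMM scaling (0.051), in a fit of only the 2 groups (0.074), with the replicate number as a block (0.065) or in edgeR (0.13). With close libraries averaged, none of H3f3a, H3f3b, H2afv and H2afy was called (adjusted p = 0.14 to 0.24). H2afj, H2afx and H2afz did not pass, though H2afj did without E13.5 replicate 1 or adult control 3 (adjusted p = 0.0020 to 0.044), under quantile normalization (0.032), with TMM scaling (0.047), with the library set as a block (0.019), in edgeR (0.021) and in DESeq2 (0.023).

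**Figure D4:**
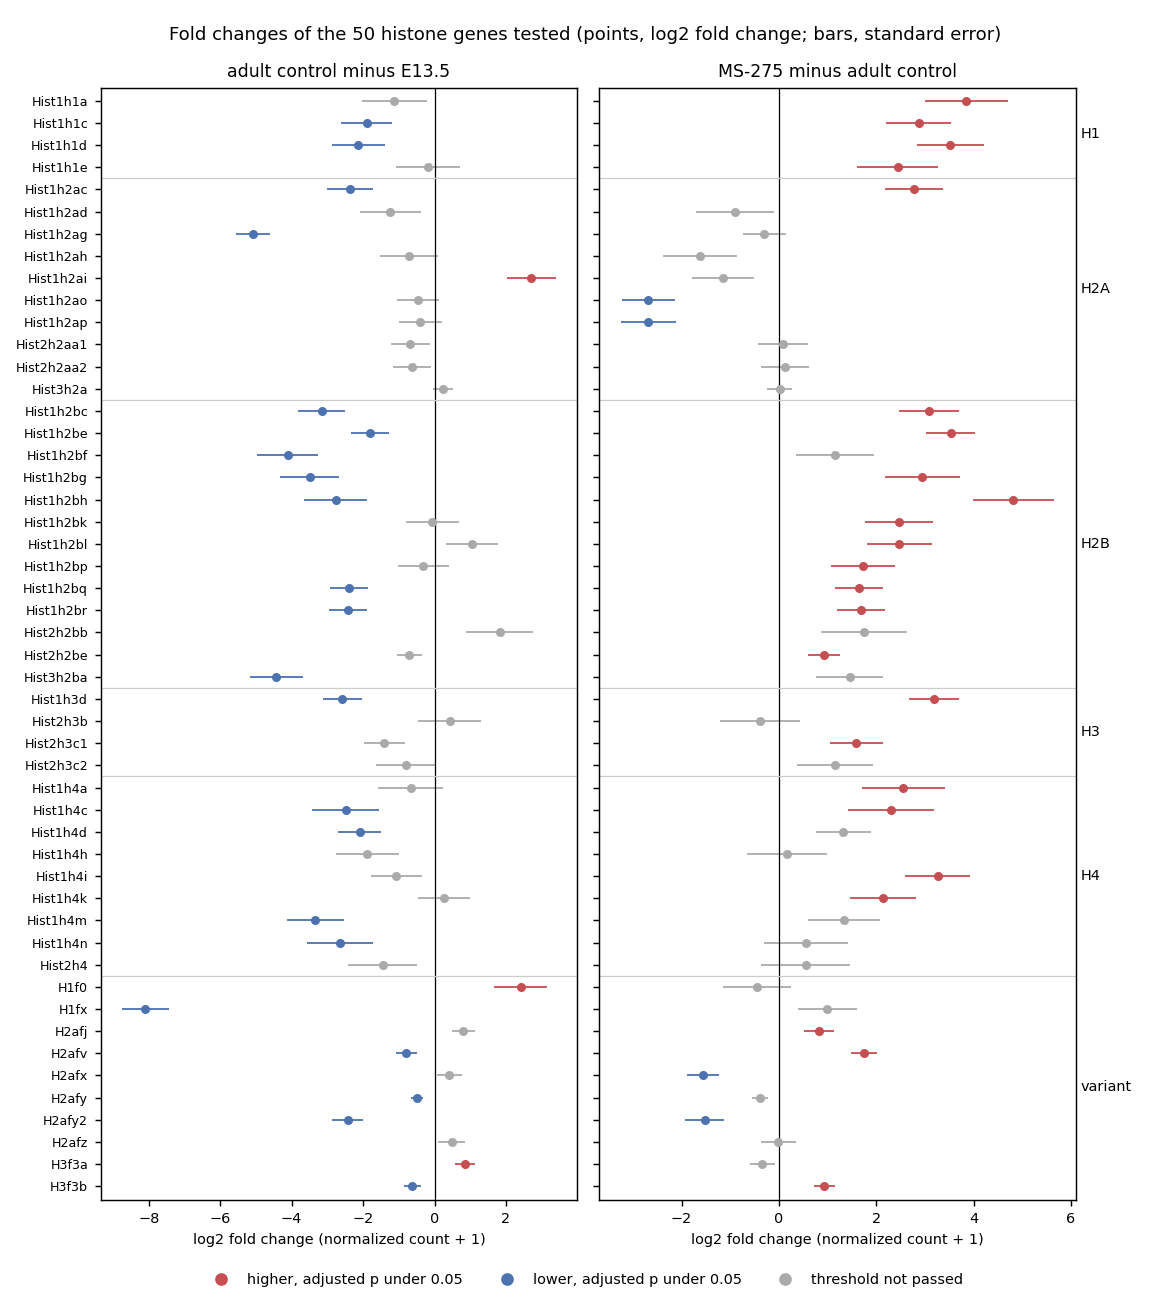
Log2 fold change (points) and standard error (bars) of the 50 histone genes tested, on the scale of the log2 of the normalized count plus 1, with the adult controls against E13.5 on the left and MS-275 against the adult controls on the right. Both comparisons use the same 3 controls. The replicative genes show 17 lower and 1 higher calls on the left (2 lower and 13 higher under quantile normalization) and 2 lower and 21 higher calls on the right (7 and 10).

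With Wnt3a, no histone gene passed the test, in limma, edgeR or DESeq2. No gene of all 15452 tested passed in limma (0.0%) or edgeR, and in DESeq2 29 were higher (0.188%) and 12 lower (0.0777%). Without adult control 3, limma called 953 genes higher and 501 lower, with 0 histone genes among them. At an unadjusted p under 0.05, 7 histone genes were higher and 0 lower, against 5.07% and 3.41% of all genes tested. They were H1fx, H3f3b, Hist1h3d, Hist1h4c, Hist1h2bl and the near-identical Hist1h2bq and Hist1h2br, of which the 5 replicative genes were named after their values were seen. In these 7 and in Hist1h2ag, also named after its values were seen, 8 in all, both Wnt3a libraries lay above every control, and in 0 both lay below, against 7.69% and 8.21% of all genes tested. Of the 8, Hist1h2ag was at 1.39 and 1.19 in Wnt3a 1 and 2, the worth of 1 read in each. H1fx was at 2.78 and 2.39, under the floor of 3 reads per library. The median log2 fold change of the 40 replicative members was 0.63, beside 0.00 over all genes tested. The Wnt3a replicates, which lie in different library sets, stood far apart. Hist1h1c was at 461 in Wnt3a 1 and at 45.4 in Wnt3a 2, and Hist1h2bc at 477 and 46.6, with the controls at 61.1 to 179 and 52.3 to 97.6. Of the 40 replicative members tested, 30 were above every control in Wnt3a 1 (27.1% of all genes tested were) and 11 in Wnt3a 2 (22.0%). Of the 12 abundant replicative members, 9 were higher in Wnt3a 1 than in Wnt3a 2. The others were Hist1h2ao (146 and 362), Hist1h2ap (164 and 368) and Hist2h2be (51.4 and 93.1). Without Wnt3a 2, 3 members passed as higher and 0 as lower (0.79% and 0.744% of all genes tested), Hist1h2bc among them (log2 2.66, limma adjusted p = 0.022), in a fit where the single Wnt3a library is assumed to vary like the other groups.

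Genes that act with histones were counted from lists of regulators. With MS-275, all 18 mitotic genes tested fell, among them Cdc20 (551 ± 161 in the controls, 25.2 ± 17.4 with MS-275, SD, n = 3 and 4), which activates the ligase that ends metaphase, and the kinase Plk1 (671 ± 255 and 36.2 ± 7.89). Of 25 S-phase genes, 14 fell and 2 rose, where 22.7% of all genes tested fell and 30.3% rose. Mcm5, a subunit of the replicative helicase, fell from 1515 ± 412 to 69.8 ± 13.6, and Cdc6, which loads it, from 334 ± 120 to 32.6 ± 4.03. Pcna, the sliding clamp of the replication fork, rose from 2856 ± 245 to 7037 ± 2444 (log2 1.23 ± 0.28, limma adjusted p = 0.0038), and was at 9560 and 8556 in replicates 2 and 4 against 4279 and 5753 in replicates 1 and 3. Replicative histone genes with long models were thus higher in libraries in which mitotic genes were lower, and what part the cell cycle had in either was not tested.

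Mki67, a marker of cycling cells, was at 2810, 1454 and 9560 in the controls and at 732, 427, 543 and 355 with MS-275 (log2 -2.77 ± 0.56, limma adjusted p = 0.0018). Adult control 3 was the highest control and every MS-275 library was below every control. Cenpa, the centromeric H3 variant and the only other variant tested outside the 10, fell from 586 ± 249 to 128 ± 13.3 (log2 -2.11 ± 0.43, limma adjusted p = 0.0018). Of 28 histone chaperones tested, 12 fell and 3 rose, beside the same 22.7% and 30.3% of all genes. Hjurp, which deposits Cenpa, fell from 1243 ± 407 to 239 ± 29.8, and Set fell from 11940 ± 1025 to 5892 ± 302.

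Of 24 genes for histone mRNA transcription and 3′ end processing, 6 rose and 7 fell with MS-275, near the shares of all genes tested (30.3% and 22.7%). Slbp itself was at 1537, 1363 and 2010 in the controls and at 1175, 1738, 1235 and 1590 with MS-275 (log2 -0.19 ± 0.25, limma adjusted p = 0.55). Npat, which switches on replicative histone genes in S phase, did not pass either (log2 0.41 ± 0.26, limma adjusted p = 0.21). Mblac1, a nuclease of histone pre-mRNA in human cells, fell from 78.5 ± 3.63 to 12.5 ± 3.36. Cstf2t, a polyadenylation factor, rose from 1780 ± 234 to 3811 ± 602, while Cstf2 fell from 3410 ± 167 to 1460 ± 105.5. Srrt fell as well, from 3412 ± 166 to 1900 ± 271. Of 7 inhibitors of cyclin-dependent kinases, 2 rose and 1 fell, beside the same shares, with Cdkn1c going from 124 ± 94.2 to 890 ± 258 and Cdkn2d from 203 ± 32.0 to 484 ± 32.3. Cdkn1b fell from 1738 ± 227 to 1190 ± 292. Cdkn1a, at 10310 ± 573 in the controls and 8191 ± 321 with MS-275, did not pass (limma adjusted p = 0.087).

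The same lists were counted between the adult controls and E13.5, where 19.5% of all genes tested were higher and 32.8% lower. Of the mitotic genes 0 were higher and 1 was lower in the controls, of the S-phase genes 6 and 3, of the chaperones 3 and 3, of the processing genes 3 and 1, and of the kinase inhibitors 0 and 4. Slbp was higher in the controls (1637 ± 335, against 939 ± 283 at E13.5, limma adjusted p = 0.024). Cdkn1c was lower (124 ± 94.2, against 738 ± 112, limma adjusted p = 0.0020). With Wnt3a, 0 genes of these lists passed in either direction in limma.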

How the data were processed

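mRNA libraries of 12 samples in 4 groups were analysed. Per the labels and methods, the authors trimmed reads with cutadapt after FastQC, aligned them with STAR to mm10, counted them on protein-coding genes (featureCounts in the processing notes, in-house scripts in the methods) and normalized the counts with DESeq2. The methods give GENCODE M23 as the annotation, and the sources used here give no tool versions. The deposited signal is thus a normalized count per gene. In every library 100.0% of the values were whole multiples, within 0.01 of a read, of what 1 read was worth, so reads were recovered, and totals were 20804279 to 33149580. Such depth leaves genes of a few reads imprecise. Of 21638 rows, 26 with dates in place of symbols (0.21% to 0.281% of the reads) and 1 with a missing value were left out. Each of the 12 value columns was mapped to a sample by its name.

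Values were taken to log2 after 1 was added, and a limma model (3.58.1, R 4.3.3, trend and robust) covered all 12 libraries at once, for genes with at least 10 in at least 2 libraries. Fold changes are on that scale and understate those of low genes. Alternatives were edgeR (4.0.16) and DESeq2 (1.42.0) on recovered reads, other pseudocounts, filters and scalings, blocks for replicate number and library set, close libraries averaged, subsets of the MS-275 libraries and each library left out. The fitting was tested on simulated data. Named were all 10 variants, replicative members with a group mean of at least 100, members in counts of 5 or fewer and, of each list of other genes, up to 4 with the smallest adjusted p together with Cenpa, Slbp, Npat, Mki67 and Pcna. Hist1h1a was named after its values were seen. The members and lists were chosen with earlier results of these data known. Annotated ends, overlaps and shared 36-base windows came from GENCODE M21, whose models may differ from those counted, and promoters from RefSeq.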

Additional observations from a re-analysis of the deposited data

Results flagged for a closer look

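Of the 50 histone genes tested, 2 had an MS-275 library far from the other 3, with a gap to its nearest neighbour, as a share of the range of the group, above the critical value of Dixon's test, which chance passes in about 1 of 20 groups. Hist1h1a, a replicative H1 gene, was at 80.9 normalized counts in MS-275 replicate 2 and at 3.41, 12.97 and 7.58 in replicates 1, 3 and 4 (gap 0.877 of the range). Hist1h4h, a replicative H4 gene, was at 9.73 in MS-275 replicate 3 and at 3.41, 2.19 and 2.53 in replicates 1, 2 and 4 (gap 0.838 of the range). Hist1h4h rests on a few reads in each library.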

How the results depend on the processing

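Of the scalings tried, quantile normalization moved the splits of the replicative genes, while scaling to the same total (1 higher and 18 lower against E13.5, 21 and 2 with MS-275) and TMM (1 and 17, 20 and 2) gave splits close to the main ones. For the adult controls against E13.5, 3 histone genes were higher and 22 lower. Higher genes numbered 15 under quantile normalization, 5 in edgeR, 5 in DESeq2, 1 with close libraries averaged (fewer samples, chosen after the data were seen) and 1 to 4 with a library left out, and lower genes 6 under quantile normalization, 9 with close libraries averaged, 13 with a filter at 50 (fewer genes tested) and 14 to 18 with a library left out. For MS-275, 24 were higher and 4 lower. Higher genes numbered 13 under quantile normalization, 6 with close libraries averaged, 15 with a filter at 50, 13 with MS-275 replicates 1 and 2 alone (fewer samples) and 18 to 22 with a library left out, and lower genes 9 under quantile normalization and 4 to 5 with a library left out. For Wnt3a, 0 were higher, and 0 to 3 with a library left out, with 3 without Wnt3a replicate 2. Against E13.5, quantile normalization turned the median log2 fold change of the 40 replicative members tested from -1.33 to 0.805. Hist1h2be (log2 0.76), Hist2h2be (1.04) and Hist2h3c1 (0.80) were among the genes whose sign turned. The sign of H1f0 turned with MS-275 replicates 1 and 3 alone (1.02), while replicates 2 and 4 alone gave -1.92. Both pairs were chosen after the data were seen, and they follow the library sets found in these data. The cause of the other shifts was not tested. Replicate numbers did not pair the samples, and with the replicate number as a block 3 histone genes were higher and 19 lower against E13.5, 19 higher and 4 lower with MS-275, and 0 with Wnt3a. Depth limits members of a few reads.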
